A study of Mus musculus with 6 samples.

Results

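Cholesterol synthesis, uptake and efflux were followed through 30 genes in RNA of the cerebellum. The genes were chosen by symbol, by a rule that used no measured value, although earlier results of these data were known. They are 18 enzymes of synthesis, 3 genes of its control and of sterol transfer, 3 genes of lysosomal release and export, and 6 genes of efflux, storage and clearance with their receptors. Each symbol was found once in the table of 43346 genes, and all 30 genes were among the 16934 tested. Although the group is named for uptake as well, it holds no lipoprotein receptor, and receptors were counted in a list of their own. The mice were 15 months old, 3 Tmem106b+/+ (WT) and 3 Tmem106b-/- (KO), with 1 female and 2 males of each genotype, and each mouse gave 1 library. TMEM106B sits in the membrane of lysosomes and late endosomes, and no other treatment or allele is given in the labels. The labels name no promoter or cell type that limits the knockout.

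The brain makes its own cholesterol, because lipoproteins of the blood do not cross into it. Acetyl units are joined and reduced to mevalonate, built into squalene, closed to lanosterol and trimmed to cholesterol. The transcription factor SREBP-2 is released to the nucleus when the membrane of the endoplasmic reticulum is low in sterol, and it switches on nearly every enzyme of the route. Lipoprotein cholesterol taken up by a cell is freed in the lysosome and leaves it through NPC2 and NPC1, and excess is exported by ABC transporters under the liver X receptors (LXR). Oligodendrocytes use the largest share for myelin, astrocytes supply neurons in lipoproteins, and neurons clear cholesterol by hydroxylating it.

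Promoter windows from RefSeq (GRCm38.p6, the assembly also called mm10, from 250 bases before a transcript start to 50 after it) were matched for 24 of the 30 genes, with 28 windows in all. They are shown for 4 genes: Hmgcs1, the HMG-CoA synthase; Insig1, a control gene; and Nsdhl and Mvd, synthesis genes whose KO and WT libraries did not overlap. Letters in capitals mark the sterol regulatory element TCACNCCAC, the CCAAT box CCAAT, to which the SREBP partner NF-Y binds, and the CACGTG motif of lysosomal and other E-box factors, each on either strand. The windows lie at chr13:119690101-119690400 (Hmgcs1, plus strand), chr5:28071162-28071461 (Insig1, plus strand), chrX:72918271-72918570 (Nsdhl, plus strand) and chr8:122443373-122443672 (Mvd, minus strand).
Hmgcs1: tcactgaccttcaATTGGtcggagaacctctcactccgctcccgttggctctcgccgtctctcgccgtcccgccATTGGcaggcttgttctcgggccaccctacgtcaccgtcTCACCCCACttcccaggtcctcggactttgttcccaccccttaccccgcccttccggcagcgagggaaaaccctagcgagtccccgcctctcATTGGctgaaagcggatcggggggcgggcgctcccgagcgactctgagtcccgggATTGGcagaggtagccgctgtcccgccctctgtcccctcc
Insig1: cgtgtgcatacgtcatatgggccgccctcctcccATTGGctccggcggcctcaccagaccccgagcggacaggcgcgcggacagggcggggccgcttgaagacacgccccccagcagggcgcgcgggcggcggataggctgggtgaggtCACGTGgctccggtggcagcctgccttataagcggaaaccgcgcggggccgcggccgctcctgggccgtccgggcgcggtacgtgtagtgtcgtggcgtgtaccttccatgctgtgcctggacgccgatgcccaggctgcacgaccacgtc
Nsdhl: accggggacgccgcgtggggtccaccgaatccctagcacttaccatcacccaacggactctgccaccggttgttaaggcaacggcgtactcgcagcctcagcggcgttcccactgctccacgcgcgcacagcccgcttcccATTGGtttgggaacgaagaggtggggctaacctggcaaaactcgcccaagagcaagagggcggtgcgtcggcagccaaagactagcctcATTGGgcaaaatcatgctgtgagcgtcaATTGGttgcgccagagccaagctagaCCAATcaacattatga
Mvd: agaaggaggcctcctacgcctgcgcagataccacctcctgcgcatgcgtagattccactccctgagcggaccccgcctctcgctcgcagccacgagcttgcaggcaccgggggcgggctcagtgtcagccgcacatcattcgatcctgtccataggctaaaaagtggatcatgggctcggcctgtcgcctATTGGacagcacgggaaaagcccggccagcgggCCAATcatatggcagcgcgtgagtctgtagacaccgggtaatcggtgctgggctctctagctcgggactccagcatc

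The Hmgcs1 window held the sterol element in its exact form TCACCCCAC, 137 bases before the start, and 4 CCAAT boxes. Hmgcs1 was the only one of the 24 genes with a match to TCACNCCAC, which was found in 1.24% of all 32851 promoter windows of the same length (0.551% for the exact form). No window was matched for Stard4, Abcg1, Fdps, Fdft1, Npc1 and Sqle. Sterol elements of other letters, or outside the windows, were not searched for, so a gene without a match may still hold one. The CCAAT box was found in 20 of the 28 windows (71.4%), which belong to 20 genes, against 37.4% of all windows. The Nsdhl window held 4 CCAAT boxes, the Mvd window 2 and the Insig1 window 1. CACGTG was found in windows of Abca1, Dhcr7, Hsd17b7, Insig1 and Sc5d (5 of 28, against 7.15% of all). The LXR element, a pair of AGGTCA separated by NNNN, was found in none of the 28 windows and in 0.0152% of all. These matches describe the letters of the windows, and the files hold no measure of binding.

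Library totals ran from 25245778 to 31135185 counts. Tmem106b, the check of the labels, stood at 230, 267 and 238 CPM (counts scaled to library size, with TMM factors) in WT and at 69.7, 67.9 and 62.7 CPM in KO. In edgeR's quasi-likelihood test its log2 fold change was -1.88 (SE 0.08, Benjamini-Hochberg adjusted p = 1.37e-04). KO replicate 1, the KO female, stood apart by base composition: the 10% of genes with the highest GC content had a median of -0.41 on the log2 scale relative to the WT mean, against -0.06 to 0.13 in the other 5 libraries, and the 10% with the lowest GC content a median of 0.21, against -0.03 to 0.04. Choroid plexus markers summed to 86.1 CPM in WT replicate 1 and to 1638 to 5121 CPM in the other libraries, so the dissected pieces differed in this tissue.

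None of the 30 cholesterol genes differed between genotypes at an adjusted p under 0.05, where edgeR called 48 of 16934 genes, or 0.283%. Adjusted p-values ran from 0.268 to 0.998. The log2 fold changes, KO over WT, lay between -0.35 and 0.29, with 13 above 0 and 17 below. At an unadjusted p under 0.05 there were 2 of 30 (6.67%, against 8.96% of all genes tested), Stard4 above and Mvd below. The 3 KO libraries lay wholly above the 3 WT libraries for Stard4 and Nsdhl and wholly below for Pmvk and Mvd, 4 genes or 13.3% against 14.1% of all genes. Both shares were near the background. DESeq2, which called 1.37% of all genes, and limma-voom, which called 0.254%, also called 0 of the 30, with 2 and 1 of them at unadjusted p-values under 0.05 (7.17% of all genes in DESeq2 and 8.89% in limma-voom).

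The spread between mice, together with the counts, set how small a difference could be seen. Mean counts of the 30 genes ran from 293 to 3884 per library, and the lowest single value was 145. The median SE of their log2 fold changes was 0.0982, against 0.122 over all genes tested. The 95% interval of the fold change lay inside 1.5-fold in either direction for 28 of the 30 genes, all but Mvk and Mvd, and inside 1.3-fold for 20. Differences smaller than these bounds were not detectable with 3 mice a group. The tissue is bulk cerebellum, so fewer cells of a type and less RNA per cell cannot be told apart.

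**Figure D1:**
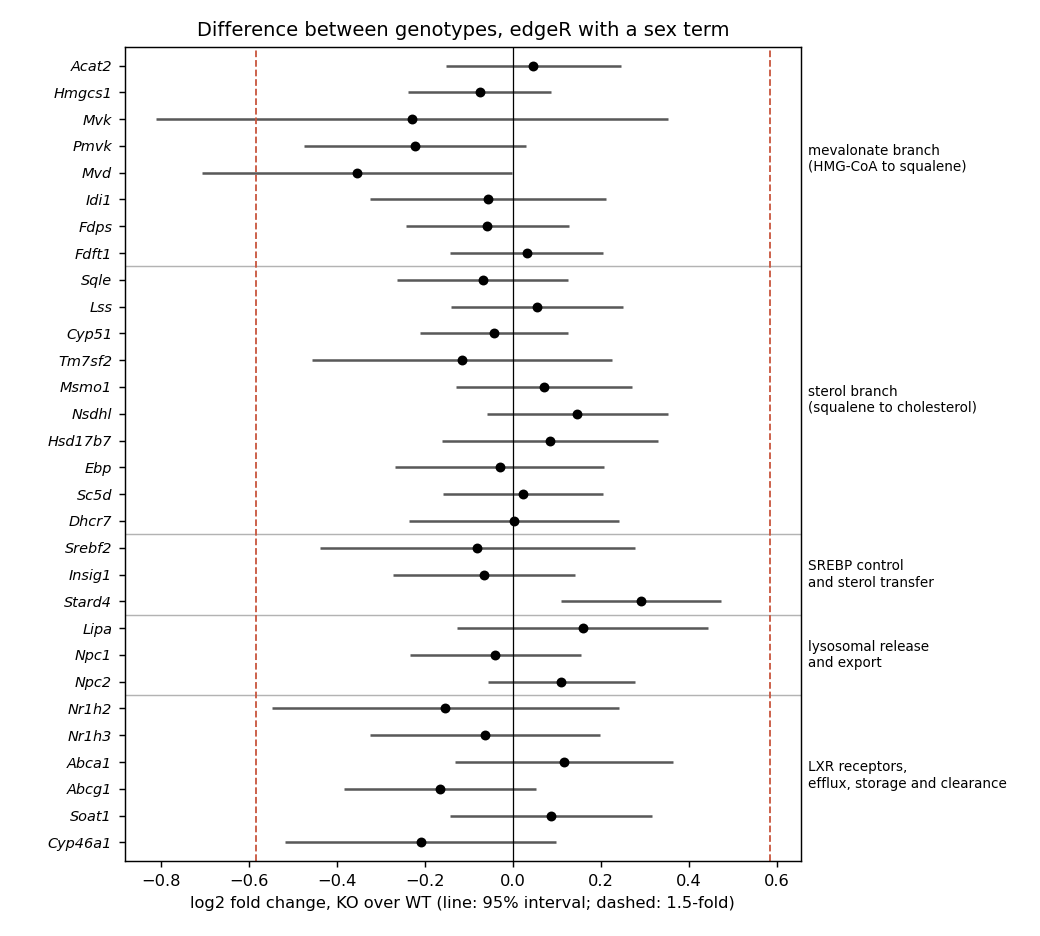
Log2 fold change (KO over WT, horizontal axis) of each of the 30 genes with its 95% interval from edgeR; dashed lines mark 1.5-fold in either direction. All points lie between -0.35 and 0.29, and only the intervals of Mvk and Mvd cross a dashed line.

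Enzymes of the first branch, which carries acetyl units to squalene, had 2 of 8 log2 fold changes above 0 and a median of -0.07, against 0.00 over all genes tested. Hmgcs1, the HMG-CoA synthase (ENSMUSG00000093930, mm10 chromosome 13 from 119690462 to 119708086), had the highest level per length of all 30. Its TMM-scaled level was 128, 150 and 137 CPM in the WT mice and 123, 129 and 142 CPM in the KO mice, so the groups overlapped. Its log2 fold change was -0.08 (SE 0.07), with an edgeR adjusted p of 0.814.

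Mevalonate is then phosphorylated by the kinases Mvk and Pmvk and decarboxylated by Mvd, and these 3 genes were the lowest of the branch by fold change. Mvd (ENSMUSG00000006517, chromosome 8 from 122433596 to 122443422) gave 13.3, 13.8 and 14.1 CPM in the WT mice and 7.51, 12.2 and 13.2 CPM in the KO mice. All KO libraries lay below all WT libraries, but KO replicate 3 came within the width of the WT spread and KO replicate 1 stood far below the other 5. Its log2 fold change was -0.35 (SE 0.15, edgeR adjusted p = 0.552). Without KO replicate 1 it was -0.14 and without WT replicate 1 -0.13. These replicates are the females, and a fit without either takes its estimate from the same males. Here and for the genes below, such a pair of fits is therefore not a pair of separate checks. Pmvk (ENSMUSG00000027952, chromosome 3 from 89459118 to 89469013) gave 35.3, 32.3 and 32.4 CPM in the WT mice and 24.6, 29.2 and 32.2 CPM in the KO mice. The highest KO library and the lowest WT library nearly touched, and the log2 fold change was -0.22 (SE 0.11, edgeR adjusted p = 0.624). It was -0.08 without KO replicate 1 or without WT replicate 1. Mvk, at -0.23, had the widest interval of the 30, from -0.81 to 0.35. It was lowest of all libraries in KO replicate 1 (5.70 CPM) and highest of all in KO replicate 3 (13.4 CPM).

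Further along the branch the genes lay close to 0. Idi1, the isomerase of isopentenyl diphosphate, was at -0.06, Fdps, the farnesyl diphosphate synthase, at -0.06, and Fdft1, the squalene synthase at the entry to sterols, at 0.03. Acat2, which joins acetyl units at the start of the route, was at 0.05. Adjusted p-values of these 4 in edgeR ran from 0.868 to 0.925. Fdft1 shares its locus with the cathepsin B gene Ctsb, which had 1925% of its counts, and Mvd shares its own with Gm20388, with 434%. Whether counting used strand is not given in the sources used here, so reads of such neighbours may be mixed.

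The sterol branch, from squalene to cholesterol, had a median log2 fold change of 0.01 over 10 genes, 6 of them above 0. Sqle, the squalene epoxidase and a slow step of the route, gave 29.04, 34.6 and 31.1 CPM in the WT mice and 27.7, 31.9 and 30.7 CPM in the KO mice. The WT range held all but 1 of the KO values, and the log2 fold change was -0.07 (SE 0.08, edgeR adjusted p = 0.853). Nsdhl, a sterol dehydrogenase that helps to remove methyl groups from lanosterol (ENSMUSG00000031349, chromosome X from 72918557 to 72958514), was the tightest of the branch. It gave 18.6, 18.8 and 19.3 CPM in the WT mice and 21.1, 21.2 and 20.4 CPM in the KO mice, so each KO library was higher than each WT library. The log2 fold change was 0.15 (SE 0.09), with an interval from -0.06 to 0.35 and an edgeR adjusted p of 0.708.

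The other 8 sterol enzymes overlapped between genotypes. Lss, which closes the lanosterol ring, was at 0.05. Cyp51, the lanosterol demethylase, was at -0.04 and Msmo1, the methyl sterol oxidase that follows, at 0.07. Hsd17b7, a ketosteroid reductase of the same demethylation, was at 0.09. Ebp, a sterol isomerase, was at -0.03 and Sc5d, a sterol desaturase, at 0.02. Dhcr7, which makes cholesterol from its dehydro form, was at 0.00 (interval -0.24 to 0.24). Tm7sf2, a sterol reductase, was at -0.12 with a wider interval, from -0.46 to 0.22, and it overlaps Vps51, which had 237% of its counts. The lowest edgeR adjusted p of these 8 was 0.854.

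**Figure D2:**
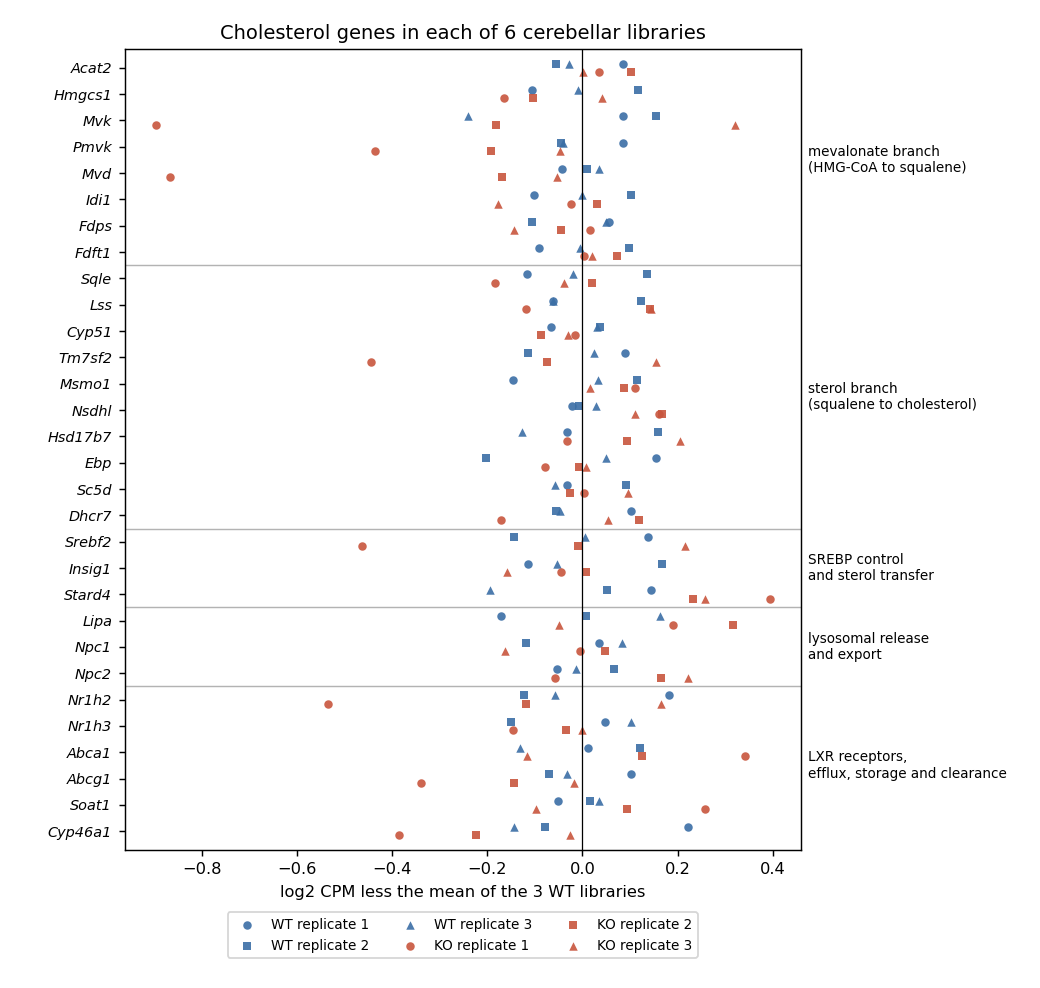
Log2 CPM less the mean of the 3 WT libraries (horizontal axis) for each of the 30 genes, 1 point per library, circles for replicate 1, squares for 2 and triangles for 3, WT in blue and KO in red. KO replicate 1 lies far to the left for Mvk, Mvd, Pmvk, Tm7sf2, Srebf2 and Nr1h2 and to the right for Stard4 and Abca1.

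Across the 18 synthesis genes as a set, the median relative to the WT mean was, in the order of the replicates, -0.03, 0.06 and -0.01 for WT and -0.06, 0.01 and 0.02 for KO, on the log2 scale. The libraries of the 2 genotypes were interleaved. WT replicate 2 was the highest WT library in 10 of the 18, and KO replicate 1 the lowest KO library in 11. The summed level of all 30 genes was 1464, 1476 and 1430 CPM in the WT mice and 1400, 1478 and 1488 CPM in the KO mice.

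Among the genes of SREBP control and sterol transfer, Stard4 had the highest fold change. It encodes a soluble carrier that moves sterol between membranes and is itself a target of SREBP-2. Stard4 (ENSMUSG00000024378, chromosome 18 from 33199355 to 33213862) gave 103, 96.2 and 81.1 CPM in the WT mice and 122, 109 and 111 CPM in the KO mice. Each KO library lay above each WT library. Its fold change was 1.22, or 0.29 on the log2 scale (SE 0.08, 95% interval 0.11 to 0.47), with the lowest adjusted p of the 30 genes, 0.268 in edgeR, which is not past the threshold. Over 15 alternative fits the log2 fold change ran from 0.22 to 0.36 and the adjusted p from 0.1249 to 0.797.

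Srebf2, which encodes SREBP-2, varied more within KO than between genotypes. It gave 102, 84.1 and 93.2 CPM in the WT mice and 67.4, 92.3 and 108 CPM in the KO mice, so that the lowest and the highest of the 6 libraries were both KO. The log2 fold change was -0.08 (SE 0.15, edgeR adjusted p = 0.904). Insig1, which holds the SREBP complex back when sterol is plentiful and is induced by SREBP-2, ran from 79.7 to 96.8 CPM in WT and from 77.3 to 86.7 CPM in KO. Its log2 fold change was -0.07 (SE 0.09, edgeR adjusted p = 0.866).

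Release and export from the lysosome rest on Lipa, the acid lipase that splits cholesterol esters, and on Npc2 and Npc1, which pass the freed sterol to and across the lysosomal membrane. Npc1 gave 100, 90.3 and 104 CPM in the WT mice and 97.7, 101 and 87.6 CPM in the KO mice, with the groups interleaved. The log2 fold change was -0.04 (SE 0.09, edgeR adjusted p = 0.916), and the overlapping gene 3110002H16Rik had 36.0% of its counts. Npc2 was at 0.11 (SE 0.07, interval -0.06 to 0.28) and Lipa at 0.16 (SE 0.12, interval -0.13 to 0.44), with edgeR adjusted p-values of 0.722 and 0.773. Both overlapped between genotypes. With KO replicates 1, 2 and 3 left out in turn Lipa was at 0.05, 0.09 and 0.31, and with the WT female left out it was at 0.06.

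Efflux genes did not share a direction. Abca1, which loads cholesterol onto apolipoproteins, gave 88.6, 95.6 and 80.3 CPM in the WT mice and 111, 95.9 and 81.1 CPM in the KO mice. KO replicate 1 was the highest of the 6 and KO replicate 3 lay among the WT libraries, and the log2 fold change was 0.12 (SE 0.11, edgeR adjusted p = 0.812). It was 0.00 without KO replicate 1 and 0.01 without WT replicate 1, and 0.22 without WT replicate 2 and 0.23 without KO replicate 3. Abcg1, which passes cholesterol to formed lipoproteins, was at -0.17 (SE 0.10, edgeR adjusted p = 0.686), and at -0.04 without KO replicate 1 and -0.03 without WT replicate 1. The LXR genes Nr1h2 and Nr1h3, whose proteins switch on both transporters, were at -0.15 (SE 0.17) and -0.06 (SE 0.11). Soat1, which stores cholesterol as esters, was at 0.09 (SE 0.10). Cyp46a1, the hydroxylase by which neurons, Purkinje cells among them, clear cholesterol, averaged 26.6 ± 3.71 CPM over the WT mice and 22.9 ± 2.87 CPM over the KO mice (SD, n = 3 each). Its log2 fold change was -0.21 (SE 0.13, interval -0.52 to 0.10, edgeR adjusted p = 0.713). It was -0.02 without KO replicate 1 and -0.01 without WT replicate 1.

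Levels per length of gene model placed the 30 genes over a range of about an order of magnitude in WT. Hmgcs1 was highest at 42.9 ± 3.36 CPM per kb, followed by Fdps at 36.7 ± 2.28 and Insig1 at 32.1 ± 3.36 CPM per kb (SD, n = 3 each). By mean ± SD, Hmgcs1 lay apart from Fdps, and Fdps and Insig1 overlapped. In all 7 genes were above 20 CPM per kb and 6 below 5 CPM per kb. The lowest were Idi1 at 3.49 ± 0.25 and Soat1 at 3.51 ± 0.11 CPM per kb. The authors' gene length can join exons of several transcripts, so a gene with long alternative exons is placed too low.

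**Figure D3:**
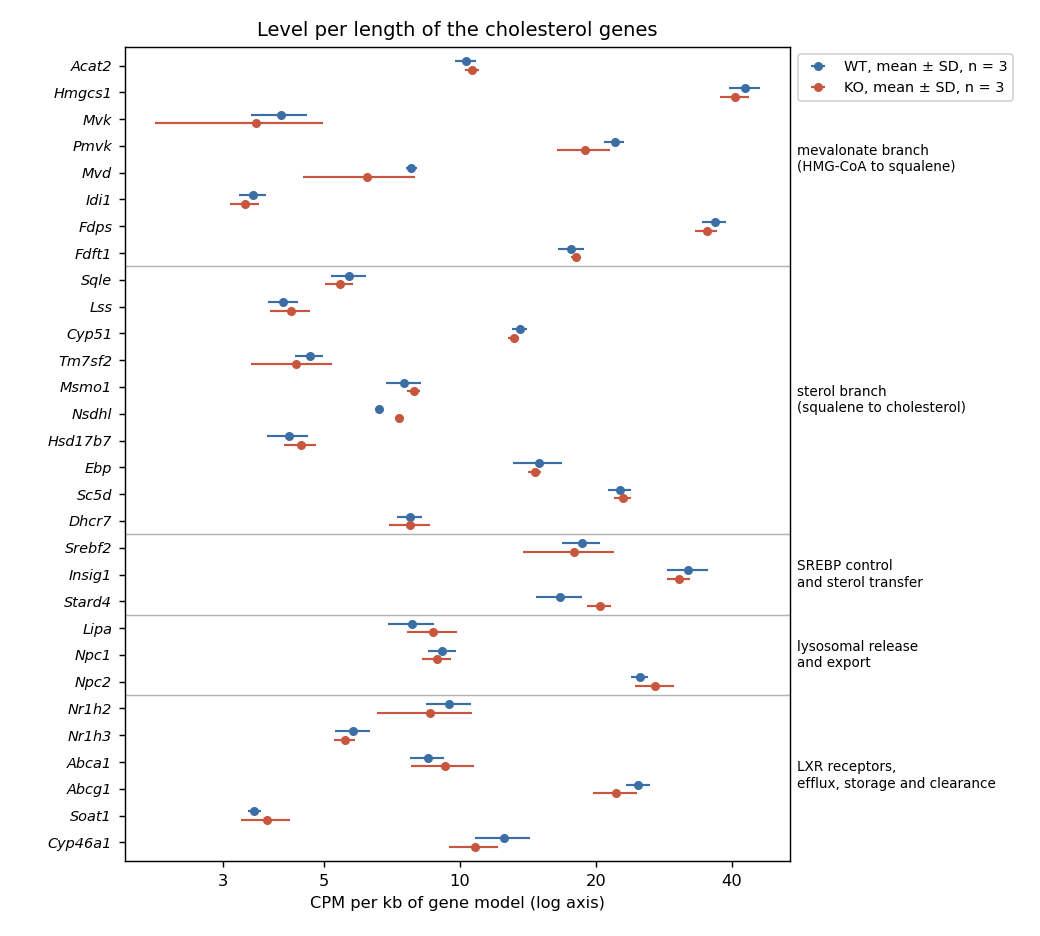
Level of each of the 30 genes as CPM per kb of gene model (horizontal log axis), mean and SD of 3 libraries, WT in blue and KO in red. Hmgcs1 is highest at 42.9 CPM per kb in WT and Idi1 lowest at 3.49, and the wide KO bars belong to Mvk, Mvd, Tm7sf2, Srebf2 and Nr1h2.

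Mvk, Mvd, Nr1h2, Srebf2 and Tm7sf2, which had the widest KO spread by SD over mean, shared a high GC content. Abca1 came next, with a spread of 15.8% in KO, at a GC content of 47.7%. A bound of 55% GC, chosen after the values were seen, was met by 8 genes: Mvk, Pmvk, Mvd, Tm7sf2, Srebf2, Nr1h2, Nr1h3 and Cyp46a1. Of these, Nr1h3 had a narrow spread, 5.24% in KO against 9.02% in WT. KO replicate 1 was the lowest of all 6 libraries in 7 of these 8 and in 6 of the other 22, and KO replicate 3 was the highest KO library in 8 of 8. The median of the 8 relative to the WT mean was -0.45 in KO replicate 1, -0.14 in KO replicate 2 and 0.08 in KO replicate 3, on the log2 scale, against -0.01, 0.08 and 0.01 for the other 22. In WT the 8 had medians of 0.09, -0.10 and -0.02. The trend of all genes with GC content and gene length in KO replicate 1 stood at -0.38 to -0.18 for these 8 genes. It is relative to the mean of all 6 libraries, not to the WT mean, so it is not on the scale of the medians above.

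In a fit whose offsets removed, library by library, the trends with GC content and length, the SE was lower in 29 of the 30 genes and its median was 0.0769. That fit called 295 genes, or 1.74% of all tested, and 0 of the 30, with a lowest adjusted p of 0.182 for Stard4 in edgeR. Srebf2 moved to -0.01 (SE 0.09) and Nr1h2 to -0.03 (SE 0.08), whereas Hmgcs1 moved away from 0, to -0.12 (SE 0.07). The median log2 fold change of the first branch moved from -0.07 to -0.12, and that of the sterol branch from 0.01 to -0.003. For the 18 synthesis genes together it moved from -0.04 to -0.05, and for the 12 other genes from -0.05 to 0.0038. Mvd was at -0.27 (SE 0.10, edgeR adjusted p = 0.275), Pmvk at -0.18 (SE 0.07, 0.294) and Stard4 at 0.25 (SE 0.08). With the trends removed, the interval lay inside 1.5-fold for 30 of 30 genes and inside 1.3-fold for 27.

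**Figure D4:**
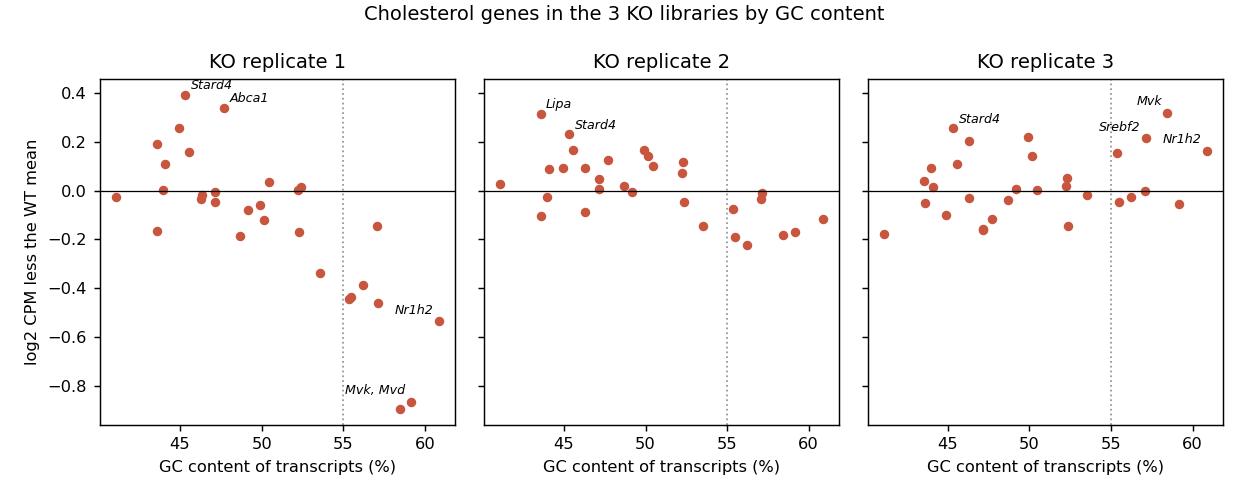
GC content of the transcripts of each gene (horizontal axis, percent) against log2 CPM less the WT mean (vertical axis), 1 panel per KO library; the dotted line marks 55%. In KO replicate 1 the 8 genes to the right of the line lie between -0.90 and -0.15, and in KO replicate 3 between -0.05 and 0.32.

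Leaving out KO replicate 3 changed the count at an unadjusted p under 0.05 most: 8 of 30 (26.7%) against 14.4% of all genes in that fit. Pmvk, Mvk, Mvd, Cyp46a1 and Abcg1 lay below and Abca1, Stard4 and Lipa above. The lowest adjusted p was 0.194, so none passed the threshold. The fit leaves KO replicates 1 and 2, and the part of the GC trend of KO replicate 1 in these values was not tested.

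Related genes outside the 30 were counted beside them. Of 19 other genes of sterol synthesis and SREBP control, 0 passed the threshold, with a median log2 fold change of -0.05 and 15 below 0. Of 17 fatty acid synthesis genes, the targets of the related factor SREBP-1, 0 passed, with a median of -0.04. Neither list had a call in DESeq2 or limma-voom, and at an unadjusted p under 0.05 in edgeR they held 2 and 0. Genes of intracellular sterol transport (18, median 0.00) and of sterol esters and oxysterols (9, median 0.02) had 0 past the threshold in edgeR, DESeq2 and limma-voom, with 0 and 1 at an unadjusted p under 0.05.

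Lipoproteins and their uptake receptors, 13 genes tested, had 8 log2 fold changes below 0 and a median of -0.13, and edgeR, DESeq2 and limma-voom each placed 0 past the threshold. Unadjusted p-values under 0.05 were found for 4, and Lrp8, Sort1 and Sorl1 among them are named here after their values were seen. The share over all genes was 8.96%. With the GC and length offsets the median was -0.07, and by library the list stood at -0.14, -0.11 and 0.13 relative to the WT mean in KO replicates 1, 2 and 3, so the third was on the other side of 0. Lrp8, the apolipoprotein E and reelin receptor, averaged 121 ± 2.87 CPM over the WT mice and 102 ± 7.98 CPM over the KO mice (SD, n = 3 each), with a log2 fold change of -0.24 (SE 0.07, edgeR adjusted p = 0.327). The sorting receptors Sort1 (-0.19, SE 0.06) and Sorl1 (-0.15, SE 0.06) lay below 0 as well, with edgeR adjusted p-values of 0.379 and 0.509.

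Among 11 LXR targets other than Abca1 and Abcg1, 1 rose. Lpl, the lipoprotein lipase gene, averaged 2.48 ± 0.37 CPM over the WT mice and 8.21 ± 1.52 CPM over the KO mice (SD, n = 3 each), a log2 fold change of 1.73 (SE 0.17, edgeR adjusted p = 0.0134). Lpl is also a gene of disease-associated microglia and is counted in that list too. The median of the LXR list was 0.05, with 6 above 0 and 5 below. Apoe, the main apolipoprotein of the brain, gave 719, 654 and 673 CPM in the WT mice and 626, 843 and 951 CPM in the KO mice, with KO replicate 1 lowest of all 6. Its log2 fold change was 0.22 (SE 0.13, edgeR adjusted p = 0.684). With the GC and length offsets it was 0.33 (SE 0.05, edgeR adjusted p = 0.0104), and Apoe was then the 1 call among the lipoprotein genes and, with Lpl, 1 of 2 among the LXR targets.

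Markers of the cell types that handle cholesterol were measured in the same libraries. Oligodendrocyte and myelin markers summed to 4948 to 6738 CPM in WT and 5589 to 5771 CPM in KO, with 0 of 15 past the threshold and a median log2 fold change of -0.07. Their lowest library was WT replicate 2, the WT library in which most synthesis genes were highest. Astrocyte and Bergmann glia markers summed to 7208 to 7614 CPM in WT and 7003 to 7544 CPM in KO, with 1 of 14 higher, Gfap, the intermediate filament gene, at 0.90 (SE 0.10, edgeR adjusted p = 0.0214). Most of this list went the other way, with 9 log2 fold changes below 0, 5 above and a median of -0.11. At an unadjusted p under 0.05 in edgeR it held 6 of 14, against 8.96% of all genes tested. DESeq2 called 2 of the 14, and the fit with GC and length offsets 3. Granule cell markers, from the most numerous neurons of the cerebellum, summed to 7757 to 8411 CPM in WT and 8308 to 8688 CPM in KO, with 0 of 12 past the threshold.

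Microglia and Purkinje cell lists held genes past the threshold. Microglia markers summed to 275 to 339 CPM in WT and 433 to 506 CPM in KO, with 4 of 15 higher, among them Fcrls, Cd68 and Ctss, and a median log2 fold change of 0.67. Of 21 disease-associated microglia genes tested, with Clec7a present as a pair of gene models, 5 rose, among them Clec7a, Lpl, Lyz2 and Lgals3. Purkinje cell markers summed to 11829 to 12844 CPM in WT and 7924 to 9045 CPM in KO, with a median log2 fold change of -0.50. Of 15, 7 were lower, among them Itpr1, Rgs8, Car8 and Doc2b. At an unadjusted p under 0.05 in edgeR the lists held, in this order, 12 of 15, 13 of 21 and 15 of 15, against 8.96% of all genes tested. DESeq2 called 10, 11 and 10 of them (1.37% of all genes), and limma-voom 3, 5 and 5 (0.254%). The values of these lists cover only genes that passed the filter on counts. The 18 synthesis genes, at a median of -0.04, and the 12 other cholesterol genes, at -0.05, lay near the median of all genes, 0.00, in these same libraries, and the part of the cell markers in the values of single cholesterol genes was not tested.

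**Figure D5:**
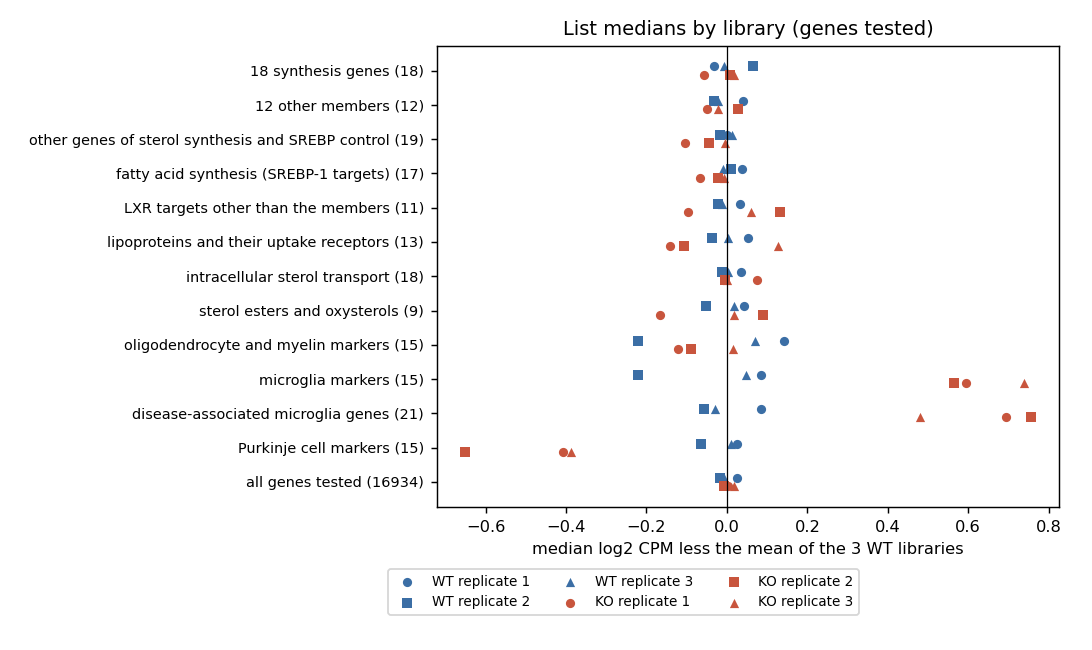
Median log2 CPM less the mean of the 3 WT libraries (horizontal axis) of each gene list, 1 point per library, with the number of genes tested in brackets; WT in blue, KO in red, circles, squares and triangles for replicates 1 to 3. The 18 synthesis genes lie between -0.06 and 0.06 and the 12 other cholesterol genes between -0.05 and 0.04, whereas the KO points of the microglia lists lie to the right and those of the Purkinje list to the left of every WT point.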

How the data were processed

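Cerebellar RNA of 6 mice was analysed, 1 library per mouse, as 1 table of raw read counts per gene that the authors deposited with gene lengths and mm10 coordinates, per the file headers. The submitters' processing notes name the aligner STAR and the build mm10. How reads were counted, with which strand setting and on which annotation, is not given in the sources used here. Per the labels' protocols, a column kit was used for RNA extraction.

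The counts entered edgeR 4.0.16 (R 4.3.3), where filterByExpr by genotype, at a minimum count of 10 and a minimum total of 15, kept 16934 genes. TMM scaling, terms for sex and genotype (3 residual and 5.41 prior degrees of freedom) and the two-sided quasi-likelihood F test (legacy, robust) were used, with Benjamini-Hochberg adjustment over all genes tested and a threshold of 0.05. SE was taken as the size of the log2 fold change over the square root of F. Intervals use the t quantile at the fit's degrees of freedom. For relative values, 2 prior counts were added before log2 CPM was taken. Totals of 25245778 to 31135185 counts and a biological coefficient of variation of 11.2% set the precision. Replicates of a genotype differed beyond sampling noise (7.45 to 31.1 chi-square units per degree of freedom), and their numbers follow the order of deposit.

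The fit was repeated in DESeq2 1.42.0 and in limma-voom (limma 3.58.1), with RLE size factors, and without the filter or with a minimum mean of 1 CPM. Further fits dropped the sex term, took males only, left out each library, used the newer quasi-likelihood version or a threshold of 0.10, or had loess offsets (span 0.5) for GC content, known for 99.0% of tested genes, and length. The steps were tested on simulated counts. All 30 genes are described. Each library's value is given for those past the threshold, at an unadjusted p under 0.05 or with groups that do not overlap, and for Hmgcs1, Sqle, Srebf2, Npc1 and Abca1, and of each further list at most 4 genes past the threshold are named. Values of Mvk, Insig1, Apoe and the 3 named receptor genes of lipoprotein uptake beyond this rule were chosen after they were seen. Members, lists and alternatives were chosen with earlier results of these data known. Some genes of the pathway are not reported here by name.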

Additional observations from a re-analysis of the deposited data

Results flagged for a closer look

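In 5 of the 30 genes the female and the male mice lay on opposite sides: the KO female differed from the WT female one way, and both KO males lay beyond both WT males the other way. This is 16.7% of the 30, against 17.5% of all genes tested, so the share was near the background. The females were lower in KO by log2 CPM differences of -0.051 for Acat2, -0.057 for Lss, -0.27 for Dhcr7 and -0.0041 for Npc2, where the mean difference in males was 0.09, 0.11, 0.14 and 0.17. Cyp51 was at 0.0503 in females and -0.09 in males. The difference between the sexes was not tested. There was 1 female of each genotype, and the KO female is the library with the GC trend, so sex and library cannot be told apart.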

How the results depend on the processing

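The count of cholesterol genes past the threshold was 0 in all 15 alternative fits and at an adjusted p of 0.10, and the lowest adjusted p was 0.1249. Of 450 values of single genes under these fits, 410 kept their direction. The number of all genes past the threshold, 48, was 75 with RLE size factors, 76 with a mean of at least 1 CPM, 111 in males only, 199 with no filter, 232 in DESeq2 and 295 with GC and length offsets. It was 93 without WT replicate 1, 1 without WT replicate 2 or 3, and 117, 16 and 156 without KO replicates 1, 2 and 3. The median log2 fold change of the 12 genes outside synthesis was 0.0038 with the offsets, -0.0024 in males only and -0.0726 to 0.0286 with 1 library left out. With no filter Dhcr7 was at -0.0012, and with the offsets Sc5d was at -0.0252 and Nr1h3 at 0.0138. In males only the values were 0.1102 for Mvk, -0.0086 for Fdft1, 0.0787 for Tm7sf2, -0.0297 for Msmo1, 0.0645 for Ebp, 0.1662 for Srebf2, 0.1115 for Nr1h2 and -0.0319 for Soat1. With each library left out in turn the ranges were -0.4743 to 0.1195 for Mvk, -0.1294 to 0.0393 for Idi1, -0.0085 to 0.0748 for Fdft1, -0.0139 to 0.1086 for Lss, -0.2225 to 0.087 for Tm7sf2, -0.0295 to 0.1373 for Msmo1, -0.0063 to 0.1577 for Hsd17b7, -0.1287 to 0.0722 for Ebp, -0.0179 to 0.0681 for Sc5d and -0.0502 to 0.1381 for Dhcr7. They were -0.2033 to 0.1745 for Srebf2, -0.1408 to 0.0191 for Insig1, -0.0963 to 0.0381 for Npc1, -0.2962 to 0.12 for Nr1h2, -0.1522 to 0.0009 for Nr1h3 and -0.0316 to 0.1917 for Soat1. The cause of these moves was not tested. The fits on males only and those that leave out a female all take their estimate from the same males, and where a fit leaves 1 sample in a cell of sex and genotype that sample is assumed to vary like the others.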
